A study of Mus musculus with 6 samples.

Results

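The genes described here are the nuclear genes of the mitochondrial respiratory chain and ATP synthase in microglia. They were the genes of the deposited table whose mouse symbol starts with Nduf, Sdha to Sdhd, Uqcr, Cox4 to Cox8, Cox10 to Cox19 or Atp5, without pseudogenes named as such. The rule was set with earlier results of these data known, but used names and no measured value. It gave 104 of the 26789 genes in the table. Of these, 37 are subunits of complex I, 4 of complex II, 8 of complex III, 17 of complex IV and 15 of complex V, and 23 are assembly factors or related proteins. Microglia, the resident macrophages of the brain, were collected at P15 from the rostral nucleus of the solitary tract (NST), the brainstem nucleus that receives taste input. Dams of the E3–E12 diet mice ate a low-sodium diet from embryonic day 3 to embryonic day 12, and dams of the controls ate a control diet. The study describes its control mice as C57Bl/6, and the labels of the samples give no strain, genotype, sex or age. Each group had 3 libraries of RNA, and by the study's methods each library pooled the NSTs of 6 littermates from 1 litter, so a library stands for a litter and not for a mouse.

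The respiratory chain takes electrons from NADH at complex I and from succinate at complex II, and passes them through complex III and cytochrome c to complex IV, where oxygen is reduced. Complexes I, III and IV pump protons across the inner mitochondrial membrane, and complex V, the ATP synthase, uses their return to make ATP. Most subunits are encoded in the nucleus and a few in mitochondrial DNA, and several nuclear subunits of complex IV exist as alternative isoforms used in particular tissues. Microglia are known to use both oxidative phosphorylation and glycolysis.

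The values are normalized counts, without a known number of reads behind each. The 6 libraries summed to between 9407141 and 17204618 normalized counts, and the 104 genes held between 0.16% and 0.25% of each sum. All 9 microglial markers examined were present in all 6 libraries. Control replicate 2 stood apart from the other libraries. It had the highest summed microglial markers (508365 normalized counts, against 100737 to 310857 in the others) and the lowest summed endothelial (4538, against 8051 to 13535), pericyte and smooth muscle (1935, against 6435 to 14952) and neuronal markers (95.9, against 748 to 1421). It listed 10640 genes at 0, where the others listed 3459 to 7135. Of the 104 genes, 17 were listed at 0 in control replicate 2, including 8 of the 17 complex IV subunits, and between 1 and 6 were listed at 0 in each other library. These include subunits that every cell uses, such as Cox5a, Cox5b, Atp5j2, Atp5l and Ndufa4, so a 0 in the table is given as listed and not as absence of the transcript. Relative to the mean of the other controls its tested members had a median log2 difference of -0.94, against -0.32 over all genes tested. For members with less than 1795 bases of exon this was -1.87, against -0.88 over all tested genes below that length. Values without this library are given beside those with it where it turned the direction or moved a value strongly. The 5 astrocyte markers examined summed to between 1304 and 1451 normalized counts in the controls and between 1812 and 3857 in E3–E12 diet mice. The 3857 was E3–E12 diet replicate 1, with 1852 and 1812 in replicates 2 and 3. Singly, Aldoc did not overlap between the groups, and Gfap, Aqp4, Slc1a3 and Aldh1l1 overlapped. In control replicate 2, which had the highest control sum, 2 of the 5 were at 0. The part of other cell types or of depth in the differences between diets was not tested, and in bulk RNA fewer cells of a type and less RNA per cell cannot be told apart.

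Expressed per kilobase of annotated exon, which allows genes of different length to be compared, the most abundant members came from complexes IV and V. Cox8a, the subunit VIII of complex IV (ENSMUSG00000035885, chr19:7215153-7217616, minus strand), had the highest mean over the 6 libraries with 1022 normalized counts per kilobase. Atp5b, the catalytic beta subunit of the ATP synthase, followed with 898, Atp5a1, the alpha subunit, with 640.0, Cox6a1 with 537 and Cox7a2l, a factor of supercomplex assembly, with 529. The range of Cox8a was between 623 and 689 in the controls and between 973 and 1834 in E3–E12 diet mice, and that of Atp5b was between 626 and 954 in the controls and between 741 and 1393 in E3–E12 diet mice, so these neighbours overlapped within each group. In the other complexes the highest means were 230.2 for Ndufb4c (complex I), 195 for Sdha (complex II) and 214 for Uqcrc2 (complex III), and each rested on control replicate 2. Over the other 5 libraries Ndufa3 (222), Sdhb (146) and Uqcrh (224) were higher than these, which averaged 149, 138 and 119. Cox8a and Atp5b led complexes IV and V with and without that library. The value of Ndufb4c is uncertain, because 100% of its 50-base windows also occur in Ndufb4. Class medians were 73.2 per kilobase for complex I, 126 for complex II, 103 for complex III, 31.6 for complex IV, 70.3 for complex V and 27.7 for assembly factors. The low median of complex IV came with the tissue isoforms and several small subunits that were near 0. At the lower end, Ndufa4, a complex IV subunit despite its name, had 0, 3.79 and 1.13 normalized counts in the controls and 0 in every E3–E12 diet library, with no window shared with another annotated gene.

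In the Cox4i, Cox6a, Cox7b and Cox8 families the isoform usual in most tissues was the more abundant one. Cox4i1 lay between 237 and 551 in the controls and between 355 and 416 in E3–E12 diet mice per kilobase, and its alternative Cox4i2, best known from lung and from brain pericytes, between 0 and 38.4 in the controls and between 19.98 and 63.6 in E3–E12 diet mice. Cox6a1 lay between 137 and 616 in the controls and between 427 and 868 in E3–E12 diet mice, and the heart and skeletal muscle isoform Cox6a2 between 0 and 33.0 in the controls and between 0 and 62.3 in E3–E12 diet mice. The ranges did not overlap in either pair. The muscle isoforms Cox7a1 and Cox8b and the testis isoform Cox7b2 averaged under 10 normalized counts and were not tested, with at most 4.77, 11.9 and 3.36 normalized counts in a library. Cox7a2, the partner of Cox7a1, was listed at 0 in control replicate 2 and E3–E12 diet replicate 1 and at no more than 25.6 normalized counts elsewhere. The proton channel subunit c of complex V is made from several genes with the same mature protein, of which Atp5g1 and Atp5g3 were measured. Per kilobase, Atp5g1 averaged 78.2 and Atp5g3 81.6 in the controls, and 159 and 27.4 in E3–E12 diet mice. Striated muscle markers summed to between 6.15 and 175 normalized counts in a library, and pericyte and smooth muscle markers to between 1935 and 14952.

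**Figure D1:**
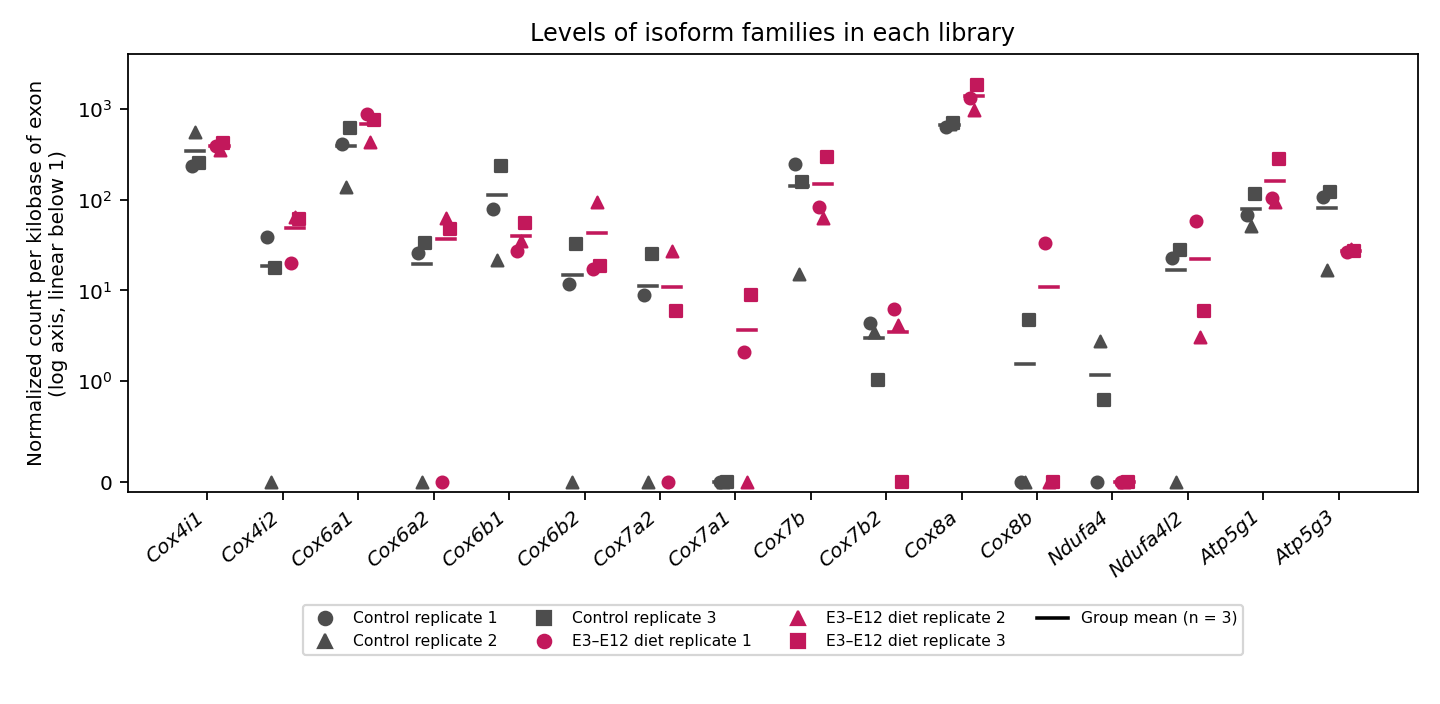
Normalized counts per kilobase of annotated exon (y axis, logarithmic above 1 and linear below) of 16 genes of isoform families, with 1 point per library, grey for controls and magenta for E3–E12 diet mice, and a bar for each group mean (n = 3 libraries). Cox4i1, Cox6a1 and Cox8a stand far above Cox4i2, Cox6a2 and Cox8b in every library. Cox7a1 and Ndufa4 lie at no more than 8.92 and 2.74, and Cox8b at no more than 4.70 apart from E3–E12 diet replicate 1 at 33.0.

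Promoter sequence was available from RefSeq (GRCm38.p6, windows from 250 bases before to 50 after a transcription start) for 82 of the 104 genes, in 88 windows. The windows were searched on both strands for letters bound by factors known to act on respiratory genes, namely the ETS core of NRF-2 (GABP) CCGGAAG, the NRF-1 palindrome, which is GCATGCGC with GC before it, the shorter GCATGCGC itself, which overlaps it, and the YY1 letters AAGATGGC. The ETS letters were in 29.5% of the members' windows and in 8.86% of all 32851 windows. The NRF-1 palindrome was in 6.82% against 0.971% and its shorter form in 12.5% against 2.71%. The YY1 letters were in 11.4% against 2.75%, with 6 of the 10 windows in complex I. The members' windows also held more CG dinucleotides (median 20, against 7 over all windows), so their base composition differs from that of most promoters. A match is a description of letters and shows no binding. The 5 windows printed here include those of the most abundant member and of its muscle counterpart, which averaged under 10 normalized counts. The others are of the member with both kinds of letters among the abundant isoforms and of 2 members whose groups did not overlap. Capitals mark the ETS and NRF-1 letters on either strand. Cox8a, at chr19:7217567-7217866 on the minus strand, holds the ETS letters at 2 places close to the start, and Cox8b, at chr7:140900397-140900696 on the minus strand, holds none of the motifs and 2 CG dinucleotides, where Cox8a has 19. Cox6a1 lies at chr5:115348909-115349208 on the minus strand, Uqcrh at chr4:116075021-116075320 on the minus strand and Sdhaf3 at chr6:6955768-6956067 on the plus strand.
Cox8a: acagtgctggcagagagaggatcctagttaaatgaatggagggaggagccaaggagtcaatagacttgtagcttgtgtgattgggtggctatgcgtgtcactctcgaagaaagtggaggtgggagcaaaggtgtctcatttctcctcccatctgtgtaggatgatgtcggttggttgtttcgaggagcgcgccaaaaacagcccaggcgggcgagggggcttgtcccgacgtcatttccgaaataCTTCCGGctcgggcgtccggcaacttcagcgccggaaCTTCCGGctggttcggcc
Cox8b: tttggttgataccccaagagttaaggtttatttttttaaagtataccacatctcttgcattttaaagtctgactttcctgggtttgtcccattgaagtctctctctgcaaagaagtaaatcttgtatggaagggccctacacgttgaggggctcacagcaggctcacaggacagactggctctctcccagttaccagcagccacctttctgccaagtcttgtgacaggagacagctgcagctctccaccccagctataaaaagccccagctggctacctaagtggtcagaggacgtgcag
Cox6a1: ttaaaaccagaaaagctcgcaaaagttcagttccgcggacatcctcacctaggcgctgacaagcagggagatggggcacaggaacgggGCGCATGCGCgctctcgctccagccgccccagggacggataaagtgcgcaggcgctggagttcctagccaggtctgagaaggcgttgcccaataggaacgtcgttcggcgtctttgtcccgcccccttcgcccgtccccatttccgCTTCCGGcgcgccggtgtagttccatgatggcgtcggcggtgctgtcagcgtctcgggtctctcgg
Uqcrh: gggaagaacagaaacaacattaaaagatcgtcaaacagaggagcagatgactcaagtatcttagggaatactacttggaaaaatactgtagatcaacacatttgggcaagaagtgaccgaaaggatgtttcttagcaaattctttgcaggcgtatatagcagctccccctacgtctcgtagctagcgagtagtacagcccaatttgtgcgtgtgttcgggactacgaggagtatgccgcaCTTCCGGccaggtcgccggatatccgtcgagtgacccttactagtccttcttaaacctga
Sdhaf3: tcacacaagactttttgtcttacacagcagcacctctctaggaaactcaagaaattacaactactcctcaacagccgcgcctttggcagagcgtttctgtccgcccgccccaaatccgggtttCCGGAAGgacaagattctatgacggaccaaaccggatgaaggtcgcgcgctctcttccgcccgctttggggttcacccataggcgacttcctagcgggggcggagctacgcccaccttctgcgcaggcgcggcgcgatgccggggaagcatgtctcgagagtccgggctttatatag

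Whether the E3–E12 diet is accompanied by a different expression of these genes in P15 microglia was examined by comparing 3 E3–E12 diet libraries with 3 controls. No member passed the threshold (0 of 98 tested at an adjusted p under 0.1, smallest adjusted p = 0.999), as 0% of all 18007 genes tested did with limma and Benjamini-Hochberg adjustment. At an unadjusted p under 0.05 limma gave 0 members, against 1.49% of all genes. The study, with DESeq2 at the same adjusted threshold, lists genes in both directions. Among respiratory chain genes it lists Cox16 as lower and ND1 and Nd4l, of mitochondrial DNA, as higher in E3–E12 diet mice. It reports that the oxidative phosphorylation system was upregulated. Why the outcomes differ was not tested. The log2 fold change, on the log2(normalized count + 1) scale, was above 0 for 63 of the 98 members (64.3%), against 54.4% of all genes. Without control replicate 2 it was above 0 for 43 members (43.9%), against 49.6% of all genes. The direction of the class as a whole therefore depended on 1 library. The median standard error of a member's log2 fold change was 0.87, with a range from 0.48 to 1.98. With array weights, which give less weight to a library far from its group, 12 members had an unadjusted p under 0.05 in limma (12.2%, all genes 7.75%). Of these, only Cox8a and Atp5d were higher in E3–E12 diet mice and the others were lower, and 0 were past the adjusted threshold. The control side of that setting rested mostly on control replicate 3 (weight 5.20). Members with a log2 fold change above 1 were 20 (20.4%, all genes 19.3%), and those under -1 were 13 (13.3%, all genes 9.57%).

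By complex, the median log2 fold change was 0.29 for complex I, 0.47 for complex II, 0.76 for complex III, 0.61 for complex IV, 0.50 for complex V and -0.03 for assembly factors, beside 0.09 over all genes tested. Without control replicate 2 the same medians were 0.03, -0.07, 0.09, -0.22, -0.01 and -0.61, beside -0.0042 over all genes. The median of complex IV moved most. Relative to each gene's mean over the 6 libraries, the median complex IV subunit was at -2.55 on the log2 scale in control replicate 2, and at 0.55 and 0.69 in control replicates 1 and 3. In E3–E12 diet replicates 1, 2 and 3 it was at -0.06, 0.66 and 0.72. Control replicates 1 and 3 thus lay within the range of the E3–E12 diet libraries. The SD between replicates was also taken for each complex IV subunit singly (log2 scale). The median of these SDs over the subunits was 2.13 in the controls (n = 3). It was 0.41 between control replicates 1 and 3 alone, and 0.92 in E3–E12 diet mice.

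**Figure D2:**
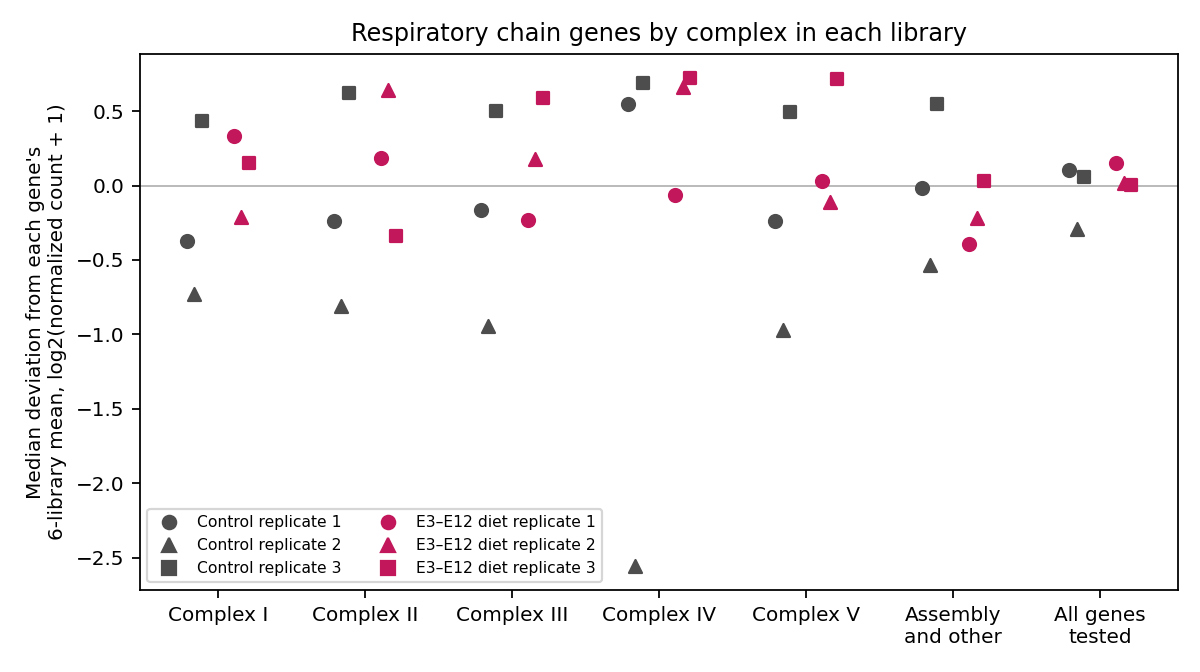
Median deviation of the tested genes of each class from their own 6-library mean (y axis, log2(normalized count + 1)), with 1 point per library. Control replicate 2, the grey triangle, is the lowest library in every class and lies at -2.55 in complex IV, while the other libraries of both diets intermingle.

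**Figure D3:**
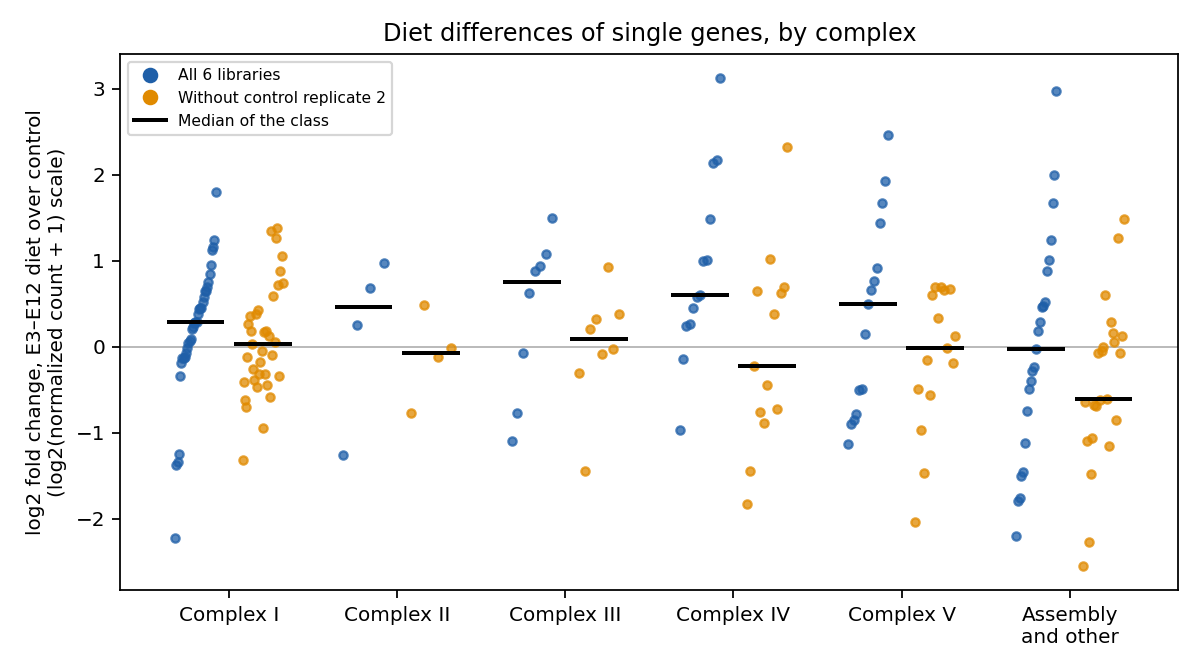
Log2 fold change of each tested member, E3–E12 diet over control (y axis), by class, from all 6 libraries (blue) and without control replicate 2 (orange), with a bar at the median. Medians of complexes I to V lie between 0.29 and 0.76 with all libraries and between -0.22 and 0.09 without control replicate 2.

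The 2 groups of libraries did not overlap in 11 members (11.2%, all genes 5.9%). In 7 of them (7.14%, all genes 2.99%) every E3–E12 diet library was above every control, and in 4 (4.08%, all genes 2.91%) every one was below. Without control replicate 2, which can only add to such counts, 12 members were higher (12.2%, all genes 6.7%) and 11 lower (11.2%, all genes 7.66%). The exact permutation test, two-sided, gave each of the 11 a p of 0.1, the smallest that 3 libraries against 3 allow, and limma gave each an adjusted p of 0.999. Their values follow by complex.

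**Figure D4:**
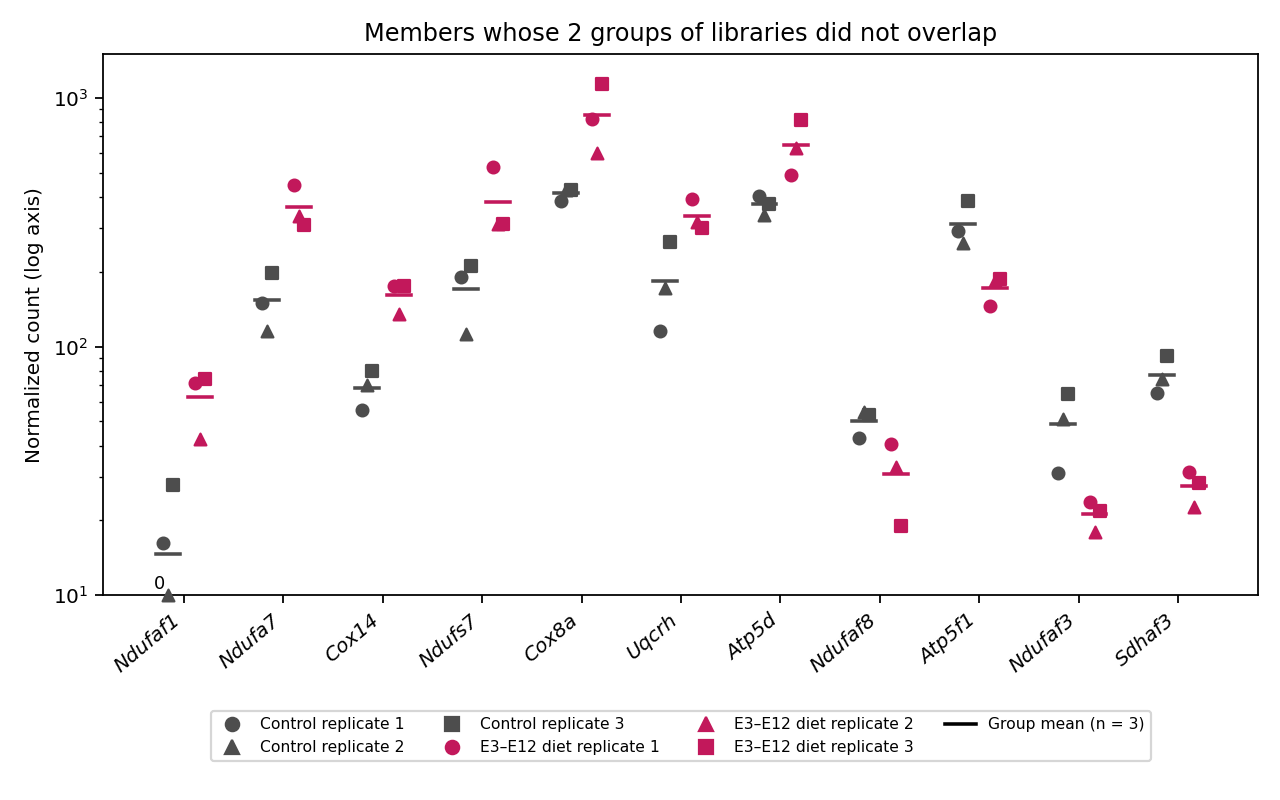
Normalized counts (y axis, logarithmic) of the 11 members whose groups did not overlap, with 1 point per library, grey for controls and magenta for E3–E12 diet mice, and a bar for each group mean (n = 3 libraries). In the 7 members on the left the magenta points all lie above the grey ones, in the 4 on the right below them, and Ndufaf1 is listed at 0 in control replicate 2, a point drawn on the lower axis and marked 0.

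Complex I, the NADH dehydrogenase, had 35 tested subunits, 24 with a positive and 11 with a negative log2 fold change (18 positive without control replicate 2), none past the threshold. The 7 core subunits, which carry the redox centres, had a median of 0.23 and the 28 tested accessory subunits a median of 0.37, and without control replicate 2 these were -0.05 and 0.05. Ndufs7 (ENSMUSG00000020153, chr10:80249121-80256794, plus strand), a core subunit that holds the last iron-sulfur cluster before ubiquinone, had 191, 112 and 211 normalized counts in the controls (replicates 1 to 3, in order) and 527, 309.8 and 312 in E3–E12 diet mice. Every E3–E12 diet library was thus above every control, and the means were 383 ± 125 against 171 ± 52.4 normalized counts (SD, n = 3 libraries each; log2 fold change 1.16, standard error 0.59). Ndufa7 (ENSMUSG00000041881, chr17:33824572-33838317, plus strand), an accessory subunit, had 150.0, 115 and 197 normalized counts in the controls and 445, 336 and 308 in E3–E12 diet mice, again without overlap (log2 fold change 1.25, standard error 0.58). Their log2 fold changes were 0.88 and 1.05 without control replicate 2, with the same sign as with it. The other subunits overlapped. Ndufb4c was the most abundant per kilobase with all libraries, but not without control replicate 2. It ranged from 22.1 to 248 normalized counts within the controls alone (log2 fold change -1.33, standard error 1.12, and -0.62 without control replicate 2). The median SD between controls of a complex I subunit was 0.94 on the log2 scale.

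Complex II, the succinate dehydrogenase that also works in the citrate cycle, had 4 subunits, 3 with a positive and 1 with a negative log2 fold change (1 positive without control replicate 2). Sdha (ENSMUSG00000021577, chr13:74322254-74350280, minus strand), the flavoprotein that oxidizes succinate, had 592, 1983 and 887 normalized counts in the controls and 311, 717 and 341 in E3–E12 diet mice. Its lowest control was below the highest E3–E12 diet library, and the controls spread more than 3-fold (log2 fold change -1.26, standard error 0.60, and -0.77 without control replicate 2). Sdhc, 1 of the 2 membrane anchors, had 311, 48.2 and 473 normalized counts in the controls and 338, 468 and 346 in E3–E12 diet mice. Only control replicate 2 was far from the rest, and the log2 fold change of 0.97 became -0.01 without it. Sdhb and Sdhd, the iron-sulfur subunit and the other anchor, had log2 fold changes of 0.25 and 0.69, and of 0.48 and -0.12 without control replicate 2.

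Complex III, the cytochrome bc1 complex, had 8 subunits in the list, 5 with a positive and 3 with a negative log2 fold change (4 positive without control replicate 2). Uqcrh (ENSMUSG00000063882, chr4:116066965-116075071, minus strand), the acidic hinge protein that lies at the docking site of cytochrome c, had 116, 172 and 262 normalized counts in the controls (replicates 1 to 3, in order) and 392, 317 and 299.6 in E3–E12 diet mice. The groups did not overlap, and the log2 fold change of 0.94 (standard error 0.59) was 0.93 without control replicate 2. Uqcrc2, a core protein, had 257, 1751 and 429 normalized counts in the controls and 209, 386 and 243 in E3–E12 diet mice. Control replicate 2 held most of its signal (log2 fold change -1.10, standard error 0.72), and without that library its log2 fold change was -0.30. In its transcripts 17.7% of windows are shared with other annotated genes.

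Complex IV, cytochrome c oxidase, had 13 tested nuclear subunits, 11 with a positive and 2 with a negative log2 fold change with all libraries, and 6 with a positive one without control replicate 2. Cox8a had 385, 427 and 427 normalized counts in the controls (replicates 1 to 3, in order) and 821, 602 and 1135 in E3–E12 diet mice. The controls lay close together and every E3–E12 diet library was above them, at 853 ± 268 against 413 ± 23.7 normalized counts (SD, n = 3 libraries each; log2 fold change 0.998, standard error 0.49, and 1.02 without control replicate 2). Cox5b, a zinc-binding subunit, had 0, 0 and 26.7 normalized counts in the controls and 4.39, 76.0 and 42.8 in E3–E12 diet mice. It was at 0 in 2 controls, and its log2 fold change of 3.12 had a standard error of 1.87, was 2.32 without control replicate 2 and was 1.38 with a pseudocount of 10. Cox5a, a further structural subunit, was at 0 in control replicate 2 and had a log2 fold change of 1.49 with it and -0.73 without it.

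The isoforms of complex IV and of subunit c were compared within each library as log2 ratios of normalized count + 1, in 5 pairs in which both genes passed the filter. Cox6b2, the testis isoform of subunit VIb, relative to Cox6b1 had log2 ratios of -1.999, -4.04 and -2.17 in the controls and -0.0025, 2.01 and -0.91 in E3–E12 diet mice. The groups did not overlap and differed by 3.10 (exact permutation p = 0.1, 0.25 adjusted by Benjamini-Hochberg over the 5 pairs), and by 1.93 with a pseudocount of 10. The levels behind this ratio were low, with Cox6b2 at 0 in control replicate 2 and between 13.1 and 103 normalized counts elsewhere, and Cox6b1 between 15.4 and 168. Atp5g1 relative to Atp5g3 had log2 ratios of 0.53, 2.74 and 1.09 in the controls and 3.12, 2.87 and 4.53 in E3–E12 diet mice, also without overlap (difference 2.05, exact permutation p = 0.1, adjusted 0.25). The 2 differences were 2.45 and 2.69 without control replicate 2. The other pairs overlapped, with differences of 1.91 for Cox4i2 to Cox4i1 (exact permutation p = 0.6), -0.43 for Cox6a2 to Cox6a1 and -0.35 for Cox7a2l to Cox7a2 (exact permutation p = 0.9 for each). The difference for Cox4i2 was 0.05 without control replicate 2, in which Cox4i2 was listed at 0, and 0.83 with a pseudocount of 10. Ndufa4l2, a paralog of Ndufa4 that is induced in hypoxia and is also found in pericytes, had 24.8, 0 and 30.5 normalized counts in the controls and 62.9, 3.36 and 6.59 in E3–E12 diet mice, and its partner was too low for a test.

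Complex V, the ATP synthase, had 15 tested subunits, 9 with a positive and 6 with a negative log2 fold change (7 positive without control replicate 2). The 5 subunits of F1, which holds the catalytic head and the central stalk, had a median of 0.50. The 10 of the membrane part and peripheral stalk had a median of 0.09. These were 0.68 and -0.17 without control replicate 2. Atp5d (ENSMUSG00000003072, chr10:80138632-80145818, plus strand), the delta subunit of the central stalk of F1, had 405, 338 and 376 normalized counts in the controls and 489.7, 632 and 814 in E3–E12 diet mice. Every E3–E12 diet library was above every control (log2 fold change 0.76, standard error 0.49, and 0.69 without control replicate 2). Atp5b, the most abundant subunit, had 2650.5, 4042 and 2697 normalized counts in the controls and 4399.7, 3139 and 5901 in E3–E12 diet mice (log2 fold change 0.50, standard error 0.48), and 1 E3–E12 diet library lay below the highest control. Atp5e, the epsilon subunit that sits beside delta, had 57.9, 10.9 and 152 normalized counts in the controls and 116, 172 and 173 in E3–E12 diet mice. Its log2 fold change was 1.67, and 0.68 without control replicate 2.

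Of the membrane part and the peripheral stalk, 5 subunits had a negative log2 fold change. Atp5f1 (ENSMUSG00000000563, chr3:105942698-105960099, minus strand), subunit b of the peripheral stalk, had 290.5, 260.3 and 386 normalized counts in the controls and 145, 183 and 186 in E3–E12 diet mice, so that every E3–E12 diet library was below every control (log2 fold change -0.85, standard error 0.57, and -0.97 without control replicate 2). In its transcripts 14.3% of windows also occur in other annotated genes. Atp5g3 (ENSMUSG00000018770, chr2:73908447-73911326, minus strand) had 232, 36.6 and 265 normalized counts in the controls and 57.9, 62.5 and 58.6 in E3–E12 diet mice. The E3–E12 diet libraries lay close together, below control replicates 1 and 3 and above control replicate 2. Its log2 fold change was -1.13 with all libraries and -2.04 without control replicate 2, at an unadjusted p of 0.0088 and an adjusted p of 1 in limma. That setting gave an unadjusted p under 0.05 to 2 members (2.04%, all genes 2.09%), the other being Cox8a. Atp5g1, by contrast, had 335, 251 and 567 normalized counts in the controls and 509.8, 463 and 1378 in E3–E12 diet mice (log2 fold change 0.92, standard error 0.60).

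Assembly factors, which insert cofactors and build the complexes without staying in them, were 23 with the related proteins, 11 with a positive and 12 with a negative log2 fold change (7 positive without control replicate 2). The 4 factors of complex II had a median of -0.93, the 8 of complex I a median of 0.38 and the 8 of complex IV a median of 0.08. These were -0.58, -0.65 and 0.06 without control replicate 2, so that of complex I turned sign. Sdhaf3 (ENSMUSG00000042505, chr6:6956004-7042979, plus strand), which helps the iron-sulfur subunit of complex II to mature, had 65.3, 74.0 and 91.8 normalized counts in the controls (replicates 1 to 3, in order) and 31.2, 22.7 and 28.3 in E3–E12 diet mice. The groups did not overlap, at 27.4 ± 4.31 against 77.0 ± 13.5 normalized counts (SD, n = 3 libraries each; log2 fold change -1.46, standard error 0.92, and -1.48 without control replicate 2). Ndufaf3 and Ndufaf8, assembly factors of complex I, were also below every control. Ndufaf3 had 31.0, 51.3 and 64.5 normalized counts in the controls and 23.8, 18.0 and 21.8 in E3–E12 diet mice (log2 fold change -1.12, standard error 1.03). Ndufaf8 had 42.9, 54.4 and 52.8 normalized counts in the controls and 40.6, 32.7 and 18.9 in E3–E12 diet mice (log2 fold change -0.74, standard error 0.98). The standard errors of both were about as large as the differences.

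Ndufaf1 and Cox14 lay above every control. Ndufaf1, which acts early in the assembly of complex I, had 16.1, 0 and 27.7 normalized counts in the controls and 71.6, 42.5 and 74.2 in E3–E12 diet mice, without overlap. Its log2 fold change of 2.97 (standard error 1.46) rested in part on a control listed at 0, and was 1.48 without it and 1.73 with a pseudocount of 10. Cox14 (ENSMUSG00000023020, chr15:99725618-99728136, plus strand), which binds newly made Cox1 protein during the assembly of complex IV, had 55.4, 69.8 and 79.5 normalized counts in the controls and 175, 135 and 176 in E3–E12 diet mice. Every E3–E12 diet library was above every control (log2 fold change 1.24, standard error 0.71, and 1.26 without control replicate 2). Cox16, a further assembly factor of complex IV, had 324, 3330.0 and 283 normalized counts in the controls and 343, 156 and 138 in E3–E12 diet mice. Control replicate 2 held most of its signal, its log2 fold change was -1.79 with and -0.64 without that library, and 54.2% of its windows lie in other annotated genes. Cox7a2l had 606, 635 and 1548 normalized counts in the controls and 366, 756 and 777 in E3–E12 diet mice, with overlapping groups. Of the 11 members without overlap, 10 had a promoter window and 6 of these held the ETS letters, namely Cox14, Cox8a, Ndufaf1, Ndufaf8, Sdhaf3 and Uqcrh, which include both higher and lower members. The ETS letters were in 29.5% of all members' windows. They were in 52.6% of the windows of assembly factors, to which Cox14, Ndufaf1, Ndufaf8 and Sdhaf3 belong. The 11 were picked by their values, and the count was not tested.

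The partners of these genes outside the list were counted in the same limma fit, with 0 past the adjusted threshold and 0 at an unadjusted p under 0.05. Of the 13 subunits encoded in mitochondrial DNA, 12 had a positive log2 fold change and 1, mt-Atp8, a negative one (-0.42), with a median of 0.26. Without control replicate 2, 11 were positive and the median was 0.31. All 13 overlapped between the groups with all libraries. The highest log2 fold changes were those of mt-Nd4l (1.59, standard error 0.75) and mt-Nd1 (1.09, standard error 0.83). Without control replicate 2 these were 2.20 and 0.82. Cycs, which encodes cytochrome c, had 149, 594 and 214 normalized counts in the controls and 89.1, 79.5 and 104 in E3–E12 diet mice, so that every E3–E12 diet library was below every control (log2 fold change -1.55, standard error 0.72, and -0.98 without control replicate 2). Among cytochrome c1, cytochrome c and the Uqcc factors, 3 were positive and 2 negative. Of 27 other assembly factors tested, 14 were positive and 13 negative, with Coa7 and Atpaf2 above every control and Ecsit below. Over all genes 2.99% lay above and 2.91% below every control. Of 10 regulators of mitochondrial biogenesis, 2 were positive and 8 negative, with a median of -0.22 (3 positive without control replicate 2), and all overlapped. Nrf1, which encodes the factor NRF-1, had 310.4, 1502 and 414 normalized counts in the controls and 254, 486 and 204 in E3–E12 diet mice (log2 fold change -0.98, standard error 0.68, and -0.29 without control replicate 2), and Gabpa, the ETS subunit of NRF-2, had a log2 fold change of -0.13 (standard error 0.54).

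The citrate cycle, which supplies the chain with NADH and succinate, had 8 positive and 3 negative enzymes of 11, with a median of 0.15 (6 positive without control replicate 2). Cs, which encodes citrate synthase, had 756, 1031 and 921 normalized counts in the controls and 1085, 1152 and 1295 in E3–E12 diet mice. Idh3b, a subunit of isocitrate dehydrogenase, had 358, 357 and 393 normalized counts in the controls and 438, 537 and 647 in E3–E12 diet mice. Both lay above every control, as 2.99% of all genes did, with log2 fold changes of 0.39 (standard error 0.45) and 0.53 (standard error 0.49). The genes named here from outside the list of 104 were picked after their values were seen.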

How the data were processed

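RNA-seq was made from 6 libraries of microglia, 3 per group. The authors deposited 1 table of normalized counts per gene, a signal without raw reads. The submitters' processing notes name FastQC, STAR, featureCounts and DESeq2 with the build GRCm38. The table's name mentions surrogate variables, and whether the values were adjusted for them is not given in the sources used here. The labels name laser microdissection, a Qiagen kit and TruSeq libraries, whereas the study's methods name magnetic sorting with CD11b beads and amplified RNA. Low values were not whole multiples of 1 step (56.7% to 73.7% within 0.1), so counts were not recovered.

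The 18007 genes that averaged 10 normalized counts or more, among them 98 of the 104 members, were compared on log2(normalized count + 1) with limma 3.58.1 in R 4.3.3 (eBayes with a mean-variance trend, two-sided, Benjamini-Hochberg over all genes, threshold 0.1, as in the study), and single ratios with exact permutation tests. P-values measure the spread between 3 litters per group. The fit was run on simulated counts with a fixed spread and no outlying library, which does not show how it performs on these data. Exon lengths, positions and shared 50-base windows came from GENCODE vM21 (GRCm38), whose annotation may differ from that of the authors. Members under the filter were Ndufa11b, Ndufb6, Cox7a1, Cox7b2, Cox8b and Ndufa4. Ndufa9, Atp5g2, Cox8c, Cox6c2 and Ndufs6b were not analysed here.

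Members, lists and motifs were chosen with earlier results of these data known. Named genes were, per class, the 2 with the smallest unadjusted p and the most abundant per length, all isoform pairs, Cox16, which the study lists, and members without overlap. Alternatives were quantile normalization, equal totals, array weights, a pseudocount of 10, no filter, the replicate number as a block, leaving out each library and no mean-variance trend.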

Additional observations from a re-analysis of the deposited data

How the results depend on the processing

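With 0 members past the adjusted threshold under every alternative run, the counts at an unadjusted p under 0.05 moved from 0 members to 2 with quantile normalization, 1 with equal totals, 12 with array weights (12.2%, all genes 7.75%) and 1 without the mean-variance trend, an alternative chosen after seeing the data, and to between 0 and 4 when a library was left out. Array weights gave control replicate 2 the lowest weight (0.21) and control replicate 3 the highest (5.20), with 0.99 for control replicate 1. The control side of that setting thus rested mostly on control replicate 3. Over all genes, array weights gave 1396 genes at an unadjusted p under 0.05 and 4 past the adjusted threshold, and leaving out a library gave 188 to 878 and 0 to 1. With array weights the medians were -0.12 for complex I, -0.32 for II, -0.22 for III, -0.01 for IV, 0.06 for V and -0.61 for assembly factors, so that of complex V alone kept a positive sign. Leaving out a library moved the medians to between 0.033 and 0.51 for complex I, -0.067 and 0.80 for complex II, 0.090 and 1.06 for complex III, -0.22 and 1.17 for complex IV, -0.015 and 0.49 for complex V, and -0.61 and 0.032 for assembly factors, and the lowest value of each class was that without control replicate 2. Without control replicate 2, 23 members did not overlap (11 with it). With fewer libraries such a count is larger by construction.

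Directions turned for Cox6a2 (-0.012 with array weights, -0.89 to 2.33 when a library was left out), Cox7b (-0.14 with quantile normalization, -0.37 with array weights, -0.76 to 1.23), Ndufa4l2 (-0.10, -1.66, -1.15 to 1.34), Sdhc (-0.065 with array weights, -0.013 to 1.62) and Cox7a2 (-1.45 to 1.11). Among ratios, leaving out a library, also added after seeing the data, gave -1.71 to 1.52 for Cox6a2 to Cox6a1 and -1.24 to 0.75 for Cox7a2l to Cox7a2. The cause was not tested. Cox5a and Sdhd turned from 1.49 and 0.69 to -0.73 and -0.12 without control replicate 2, and Sdhb, 0.25 with all libraries, to -0.27 when 1 other library was left out. The other genes named by the rule kept their sign. A pseudocount of 10 in place of 1 moved Cox4i2 to 1.08, Cox5b to 1.38, Cox6b2 to 1.08, Ndufaf1 to 1.73 and Ndufa4l2 to 0.07, and the ratios of Cox4i2 and Cox6b2 to 0.83 and 1.93.

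Libraries with the same number correlated in their deviations from the group means at 0.26, 0.03 and 0.14, and those with different numbers at -0.25 to 0.09. The study describes 3 independent replicates, each with 6 mice of either diet. Whether equal numbers mark pairs is not settled by these values, and the main fit did not use the numbers. With the replicate number as a block, 478 genes and 2 members had an unadjusted p under 0.05 in limma, against 268 genes and 0 members in the main fit. No depth is known for single values, and standard errors of single members ran from 0.48 to 1.98.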
